A study of Mus musculus with 8 samples.

Results

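Sl/Sl endothelium was compared with wild type endothelium of the E11.5 mouse AGM+VU, the aorta-gonad-mesonephros region with its vitelline and umbilical arteries. Endothelial cells are among those that normally make Kitl. The comparison takes in the 4 endothelial libraries of the 8 in the series, 2 of each genotype, and runs over all genes. Of 24015 genes counted, 13908 passed a filter on low counts and were tested. The gate for endothelium was Ter119- VE-Cadherin+ Kit- CD41- CD45-, and 100 such cells from a pool of 1 to 4 embryos on a C57BL/6 background went into each library. Sl/Sl embryos were homozygous for the Steel allele, a deletion that takes in Kitl and that is carried by every cell of the embryo, so endothelium, clusters and the surrounding tissue all lacked the gene. The other 4 libraries held Ter119- VE-Cadherin+ Kit+ cluster cells of the same genotypes. The cells came from 2 sorting experiments, and the sources do not say which library came from which, so sorting experiment and library cannot be told apart.

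Kitl, also called stem cell factor, is made as a membrane-bound and a soluble ligand by endothelial and stromal cells. It binds the receptor tyrosine kinase Kit, which signals through PI3 kinase, Src family kinases and the Ras-Erk cascade, and it is needed by hematopoietic stem and progenitor cells, germ cells and melanocytes. In the midgestation aorta the endothelium lines the vessel in which clusters of hematopoietic cells form. A change of endothelial genes in Sl/Sl embryos could be looked for at the deleted locus, in Kit signaling within the endothelium, and in the other ligands that the endothelium offers to the clusters.

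The 4 endothelial libraries held between 8933236 and 12832650 counts on genes, with 12844 to 13507 genes detected in each. Levels are given as CPM, counts scaled to a common library total with TMM factors. A gene listed at 0 could have had up to 3 counts, or 0.238 to 0.357 CPM depending on the library. SMARTSEQ2 adds no molecular identifiers, so such limits and the intervals below cover counting error only. The endothelial label was borne out by its defining genes. Of 32 core endothelial genes, all were tested, and they summed to 15570 and 15590 CPM in wild type and 16410 and 17180 CPM in Sl/Sl, while the 20 leukocyte markers summed to 276 to 317 CPM. Markers of other cells differed between libraries. The 22 mesenchymal and smooth muscle genes summed to 2023 and 405 CPM in wild type and 662 and 1414 CPM in Sl/Sl, so that wild type replicate 1 and Sl/Sl replicate 2 were the highest. Lum, a matrix proteoglycan of fibroblasts, had 7567 and 324 counts in wild type versus 32 and 4360 in Sl/Sl. The 14 epithelial and coelomic genes summed to 149 and 60.5 CPM in wild type and 1.57 and 69.7 CPM in Sl/Sl, with Wt1 at 288, 0, 0 and 1 counts in the same order. The Y-linked gene Eif2s3y had 987 and 618 counts in wild type versus 713 and 5 in Sl/Sl, and Uty had 252, 267, 162 and 1, so Sl/Sl replicate 2 held almost no Y-linked RNA. Xist had 1655 and 832 counts in wild type versus 383 and 1553 in Sl/Sl. The part of these differences in the results was not tested, and in bulk samples fewer cells of a type and less RNA per cell cannot be told apart.

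Kitl (chr10:99478458-99563046 on mm9, plus strand) went from 1250 and 923 counts in the wild type libraries to 6 and 2 in those of Sl/Sl. Scaled for library size and pooled over replicates this is 239-fold lower in Sl/Sl, with a 95% exact interval of 121 to 555. The genotypes were far apart, at 93.2 to 99.3 CPM against 0.238 to 0.525 CPM. Sequence upstream of the affected genes is shown first, because 3 further genes on one side of Kitl were near 0 with it, and 2 of these, Tmtc3 and Cep290, start back to back from a shared stretch of DNA. Both sequences are from the RefSeq promoter table on GRCm38.p6, not on the mm9 build of the counts. They are printed 5′ to 3′ on the plus strand. The first, chr10:100015571-100015820, is the 250 bases before the start of Kitl, and the second, chr10:100487348-100487581, is the 234 bases between the starts of Tmtc3 (minus strand) and Cep290 (plus strand). Capitals mark the letters TATAA and GGGCGG searched on both strands.
Kitl: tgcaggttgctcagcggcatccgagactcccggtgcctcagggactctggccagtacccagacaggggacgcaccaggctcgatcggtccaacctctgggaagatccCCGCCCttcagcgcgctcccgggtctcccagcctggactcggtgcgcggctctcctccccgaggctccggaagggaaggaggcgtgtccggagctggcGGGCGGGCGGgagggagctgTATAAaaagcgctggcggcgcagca
Tmtc3 and Cep290: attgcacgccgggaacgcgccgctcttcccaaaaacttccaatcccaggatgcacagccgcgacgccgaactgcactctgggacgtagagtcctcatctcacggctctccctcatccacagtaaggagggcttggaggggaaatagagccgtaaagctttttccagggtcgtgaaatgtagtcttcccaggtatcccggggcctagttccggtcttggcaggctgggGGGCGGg
The Kitl stretch held 1 match to TATAA and 3 to GGGCGG, 2 of which overlap each other, and the shared stretch held 0 and 1. Of 32851 promoters in the table, 22.8% held TATAA and 32.7% held GGGCGG in the 250 bases before the start. A match describes the letters and is not a binding site.

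Tmtc3, an enzyme of the endoplasmic reticulum that adds O-linked mannose, lies 343.5 kb beyond Kitl (chr10:99906536-99949981 on mm9). Wild type endothelium held 899 and 905 counts of it versus 5 and 4 in Sl/Sl. This was 177-fold lower (95% exact interval 92.9 to 387), and the log2FC, the log2 fold change of Sl/Sl over wild type in the edgeR fit, was −7.45 with a standard error (SE) of 1.52, close to that of Kitl at −7.91 (SE 1.96). Cep290, a protein of the ciliary transition zone, lies 387.9 kb away (chr10:99950923-100036289). It had 78 and 111 counts in wild type and 0 in both libraries of Sl/Sl, at least 28.1-fold lower against a floor of 3 counts per library. 4930430F08Rik lies 471.9 kb away and its 3′ end overlaps that of Cep290 on the opposite strand, so that the pair can share reads where strand was not used in counting. It had 15 and 239 counts in wild type versus 0 and 5 in Sl/Sl, a pooled ratio of 44.8 (18.9 to 139), and its wild type replicates lay far apart.

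On the other side of Kitl, 4 of the 5 tested genes overlapped between the genotypes, while Csl was lower by less than its SE. Csl, at 0.256 Mb, a low gene, had 23 and 13 counts in wild type endothelium versus 15 and 8 in Sl/Sl (log2FC −0.47, SE 2.08). Dusp6, a phosphatase that turns off Erk and lies 0.748 Mb away, had 3961 and 3818 counts in wild type versus 3055 and 2680 in Sl/Sl (log2FC −0.26, SE 0.46), and its CPM overlapped between genotypes. Atp2b1, a calcium pump of the plasma membrane at 0.990 Mb, had 2045 and 1875 counts versus 2396 and 1265 (log2FC 0.03, SE 0.43). Galnt4 and Poc1b, whose exons lie in the same stretch, overlapped between the genotypes as well. In total 21 genes had an exon within 2 Mb of Kitl, of which 12 were at 0 to 3 counts over all 8 libraries, among them the Gm4312 family between Kitl and Tmtc3 and Mgat4c beyond 4930430F08Rik. The end of the affected stretch could not be placed from these counts, and the extent of the deletion was not given in the sources used here.

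The same 3 neighbours were near 0 in Sl/Sl clusters. There, Tmtc3 had 587 and 59 counts in wild type clusters versus 5 and 0 in Sl/Sl clusters, Cep290 had 257 and 47 counts versus 4 and 0, and 4930430F08Rik had 277 and 79 counts versus 4 and 1. The change of Tmtc3 did not differ between the cell types beyond its error (interaction −0.39 on the log2 scale, SE 2.13). Kitl itself was a gene of the endothelium, with 110 and 0 counts in wild type clusters. Farther out on chromosome 10, the 14 tested genes with their midpoint 2 to 5 Mb from Kitl had a median log2 fold change of −0.084, and the 278 genes 20 to 50 Mb away had a median of 0, against −0.36 for the 8 tested neighbours within 2 Mb. Of the 35 genes 5 to 10 Mb away (median −0.036), 7 lay below wild type and 1 above. Of the 174 genes 10 to 20 Mb away (median −0.037), 29 lay below and 20 above. Over all 13908 tested genes, 2077 lay below and 1883 above.

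**Figure D1:**
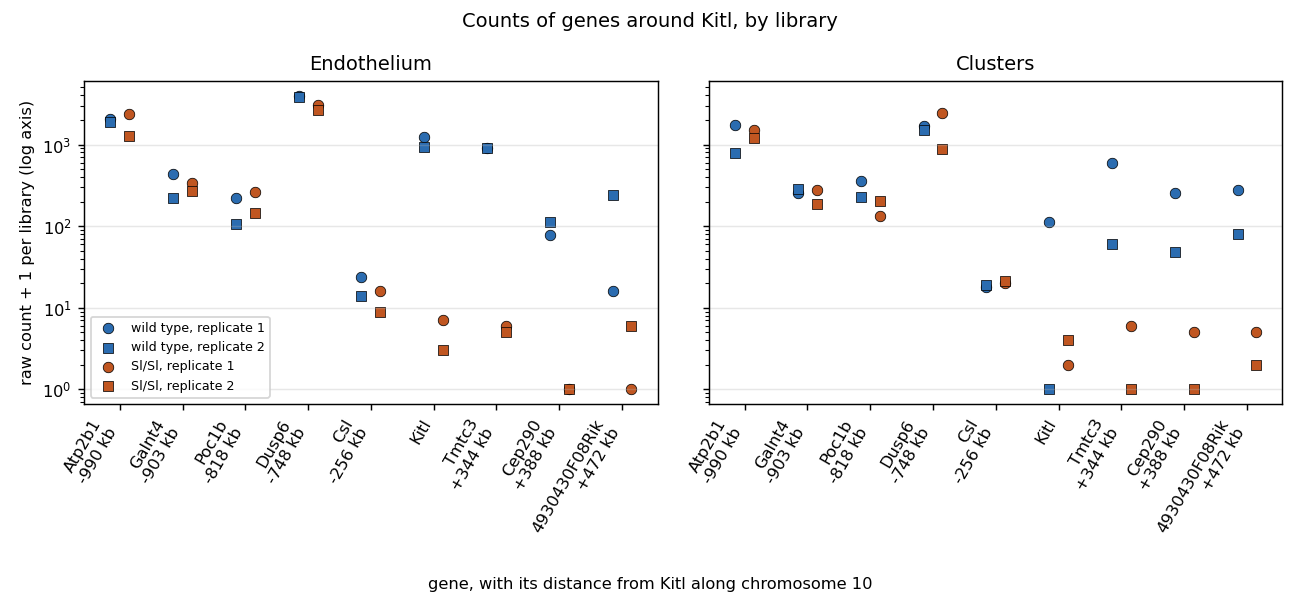
Raw count + 1 per library on a log axis for Kitl and the 8 tested genes within 2 Mb, ordered along chromosome 10 with their distance in kb, in endothelium (left) and clusters (right). Kitl, Tmtc3, Cep290 and 4930430F08Rik sit near the bottom in both Sl/Sl endothelium libraries, while Dusp6, Poc1b, Galnt4 and Atp2b1 overlap between the genotypes in endothelium and Csl is low in all libraries.

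Over all genes, 0 of 13908 (0%) passed the threshold of 0.1 on the Benjamini-Hochberg adjusted p-value of edgeR's quasi-likelihood test. Kitl itself, which is deleted in Sl/Sl, did not pass in this fit (unadjusted p = 0.00278 in edgeR). A count of 0 therefore does not show that other genes were unchanged. Without adjustment, 580 of the 13908 genes had p under 0.05 in this test. This is a smaller share than the 0.05 reached by evenly spread p-values, as when no gene differs. Taken over all tested genes, small p-values were thus not in excess. With these genes cut into 5 equal bins by level, the shares from lowest to highest were 5.03%, 7.37%, 3.52%, 3.42% and 1.51%. Of all tested genes, 255 (1.83%) were higher and 325 (2.34%) lower in Sl/Sl endothelium with p under 0.05. The balance turned with the libraries, to 454 higher and 265 lower without wild type replicate 1 and to 279 and 533 without Sl/Sl replicate 2. The number of calls depended on the libraries, filter and tool. When the 4 endothelial libraries were fitted on their own, 2 genes passed, and these were Kitl and Tmtc3, both with an adjusted p-value of 0.0991 in edgeR. DESeq2 on all 8 libraries called 85 of the tested genes higher (0.611%) and 88 lower (0.633%). In data simulated from these libraries 56.6% of the calls made by DESeq2 were genes that had not been changed, against 14.1% of those made by edgeR. There DESeq2 found 40.2% and 69.4% of the genes set to a log2 fold of 2 and 4, and edgeR 23.4% and 54.8%. The simulated counts were drawn with the spread per gene that edgeR had estimated. The setting therefore follows edgeR's own model, and these shares cannot rank the tools or be carried over to the calls made here.

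Single libraries of different genotype were about as far apart as replicates. Spearman correlations of log2 CPM across the tested genes were 0.891 between the wild type replicates, 0.897 between the Sl/Sl replicates and 0.892 to 0.905 between genotypes. When the tested genes were cut into 5 equal bins by level, the median absolute log2 ratio in the highest bin, from 92.25 CPM upward, was 0.287 between wild type replicates, 0.304 between Sl/Sl replicates and 0.261 between genotypes. The ratios were widest in bin 2, with 1.28, 1.21 and 1.23, while in bin 1, where 1 was added to levels under 2.99 CPM, they were 0.308, 0.233 and 0.315. Genes present in one library and missing from its replicate were frequent. Between the wild type replicates 964 genes had at least 50 counts in one and at most 3 in the other, and between the Sl/Sl replicates 732. Under a rule that asks for agreement of replicates, and so cannot be set against these numbers, 46 genes had at least 50 counts in both wild type libraries and at most 3 in both Sl/Sl libraries, and 25 had the reverse. Both Sl/Sl libraries lay above both wild type libraries in 1883 tested genes (13.5%) and below them in 2077 (14.9%), and counts of gene list members are read against these shares below.

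**Figure D2:**
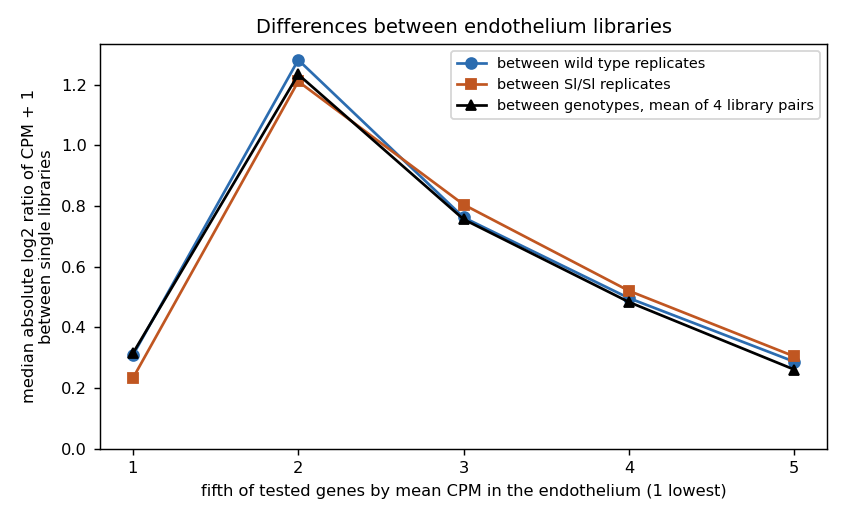
Median absolute log2 ratio of CPM + 1 between single endothelium libraries (y axis) for 5 equal bins of the tested genes by mean CPM (x axis, 1 lowest). The line for libraries of different genotype runs along the lines for replicates, from 0.315 in bin 1 through 1.23 in bin 2 to 0.261 in bin 5.

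The genes below were taken by the smallest unadjusted p-values among those that did not overlap between genotypes, 15 in each direction. Added to them were a few of the genes with at most 3 counts in both libraries of one genotype and at least 50 in both of the other, chosen after their values were seen. Counts are given as replicates 1 and 2 of wild type, then of Sl/Sl. None passed in the edgeR test over all libraries, and their folds describe these 4 libraries. Among the genes that were lower in Sl/Sl, beside Kitl and Tmtc3, several act at the cell surface. S1pr3, a receptor for sphingosine 1-phosphate (chr13:51503987-51518166), had 149 and 164 counts in wild type versus 0 and 1 in Sl/Sl, with a pooled ratio of 276 (95% exact interval 49.2 to 10930). Sema4d, a semaphorin (chr13), had 78 and 152 counts versus 5 and 1, 33.8-fold lower (15.3 to 93.0). Lrp12, a member of the LDL receptor family on chr15, had 270 and 110 counts versus 11 and 3, 23.9-fold lower (14.1 to 44.2). Tnfrsf21, a death receptor on chr17, had 389 and 287 counts versus 54 and 44, a log2FC of −2.58 (SE 0.66). In each of these the higher Sl/Sl library stayed below the lower wild type library by several fold.

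Other genes of this set work in membranes and the secretory pathway. Erlin1, which with Erlin2 forms a complex of the endoplasmic reticulum membrane, had 498 and 392 counts in wild type versus 46 and 31 in Sl/Sl (log2FC −3.35, SE 0.57). Its partner Erlin2 (chr8) had 1153 and 601 counts versus 437 and 366, with a log2FC of −0.90 (SE 0.47) and no overlap in CPM. B3galt6, a galactosyltransferase of proteoglycan synthesis on chr4, had 636 and 520 counts versus 83 and 49 (log2FC −2.97, SE 0.66). Rab32, a small GTPase of organelle traffic, had 416 and 203 counts versus 4 and 22 (log2FC −4.19, SE 0.92). Osbpl8, a lipid transfer protein, had 1011 and 934 counts versus 318 and 265 (log2FC −1.56, SE 0.35). Rab32 and Osbpl8 are on chromosome 10 too, at 89.2 and 11.04 Mb from Kitl. Rinl, which binds Rab5 proteins, had 130 and 95 counts versus 5 and 2, 28.3-fold lower (95% exact interval 13.5 to 71.3).

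Cdc6, which loads the replicative helicase onto DNA, had 700 and 412 counts in wild type versus 26 and 78 in Sl/Sl (log2FC −3.08, SE 0.68). Poc5, a centriole protein, had 467 and 432 counts versus 55 and 15 (log2FC −3.60, SE 0.81), and Dnajb4, a heat shock protein cofactor, had 848 and 577 counts versus 221 and 70 (log2FC −2.18, SE 0.51). Cdc6 is a member of the cell cycle list described below. Of the genes near 0 in both Sl/Sl libraries, Gucy1b3, a subunit of the nitric oxide receptor guanylate cyclase, had 147 and 69 counts in wild type versus 1 in each Sl/Sl library, a pooled ratio of 95.2 (95% exact interval 26.04 to 791). Cd248, a surface protein of pericytes and fibroblasts, had 82 and 101 counts versus 0 in both, at least 27.0-fold lower, and Lrp1 had 86 and 111 counts versus 0 and 1, a ratio of 174 (30.8 to 6893). Scn2b, a sodium channel subunit, had 261 and 269 counts versus 2 and 1, a ratio of 156 (53.0 to 758), and Rilp, a lysosomal effector of Rab7, had 54 and 129 versus 0 in both, at least 27.9-fold lower. Cd248 is also a gene of the mesenchyme, and the mesenchymal sum differed between the libraries as given above, highest in wild type replicate 1 and Sl/Sl replicate 2.

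Of the genes that were higher in Sl/Sl endothelium, some are known from hematopoietic and immune cells. Syk, a tyrosine kinase that transmits signals of immune receptors and integrins, had 45 and 38 counts in wild type versus 298 and 162 in Sl/Sl (log2FC 2.61, SE 0.46). Cd200r1, an inhibitory receptor of myeloid cells on chr16, had 20 and 3 counts versus 181 and 80 (log2FC 3.70, SE 0.70). Tlr4, the lipopolysaccharide receptor on chr4, had 0 counts in both wild type libraries versus 131 and 154, at least 55.1-fold higher. In clusters, Cd200r1 had 973 and 1320 counts in wild type versus 1082 and 1479 in Sl/Sl, and Tlr4 had 56 and 16 counts versus 85 and 17. Of the 20 leukocyte markers, 1 lay above and 5 below wild type, and their sum of 282 and 276 CPM in wild type and 317 and 295 CPM in Sl/Sl was mostly Lcp1 and Laptm5. Ptprc, which encodes CD45, had 16 and 6 counts in wild type endothelium versus 8 and 7 in Sl/Sl.

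Mki67, which coats mitotic chromosomes, had 1213 and 1174 counts in wild type versus 3657 and 1657 in Sl/Sl (log2FC 1.27, SE 0.31). Ckap2l, a spindle protein on chr2, had 338 and 303 counts versus 1556 and 697 (log2FC 1.93, SE 0.39), and Hmmr, which organizes the spindle, had 479 and 293 counts versus 1307 and 703 (log2FC 1.55, SE 0.37). In CPM the lower Sl/Sl library exceeded the higher wild type library by more than 1.5 times in all 3. Nhej1 and Parp3, which act in repair of DNA double-strand breaks, were near 0 in wild type. Nhej1 had 0 and 2 counts versus 127 and 78, a pooled ratio of 116 (95% exact interval 31.8 to 967), and Parp3 had 0 in both against 96 and 64, at least 29.6-fold higher.

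The remaining genes of the set have varied roles. Angpt1, the ligand that activates the endothelial receptor Tek, had 11 and 16 counts in wild type versus 118 in each Sl/Sl library (log2FC 3.29, SE 0.59). Ifi27, an interferon-induced gene, had 2 and 4 counts versus 318 and 129, 84.5-fold higher (95% exact interval 38.5 to 232). Phlda2, an imprinted gene that restrains placental growth, had 4 and 0 counts versus 280 and 74, a ratio of 100.4 (38.9 to 370), and Ddit4l, an inhibitor of mTOR signaling, had 1 and 0 counts versus 53 and 176, a ratio of 260 (46.2 to 10310). Mkl1, a coactivator of serum response factor, had 6 and 2 counts versus 97 and 123 (31.2-fold, 15.6 to 73.2), Gem, a GTPase that inhibits calcium channels, had 92 and 54 counts versus 688 and 260, and Myo5a, a motor of vesicle transport, had 11 and 12 counts versus 199 and 68. Of the genes at 3 counts or fewer in wild type, Prokr2, a prokineticin receptor, had 154 and 177 counts in Sl/Sl and 0 in both wild type libraries, at least 63.8-fold higher, and Thada had 204 and 125 in Sl/Sl versus 0 and 2, a ratio of 187 (51.2 to 1547). Many of these genes were well measured in clusters. Angpt1 had 1935 and 1343 counts in wild type clusters versus 1984 and 1014 in Sl/Sl clusters.

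**Figure D3:**
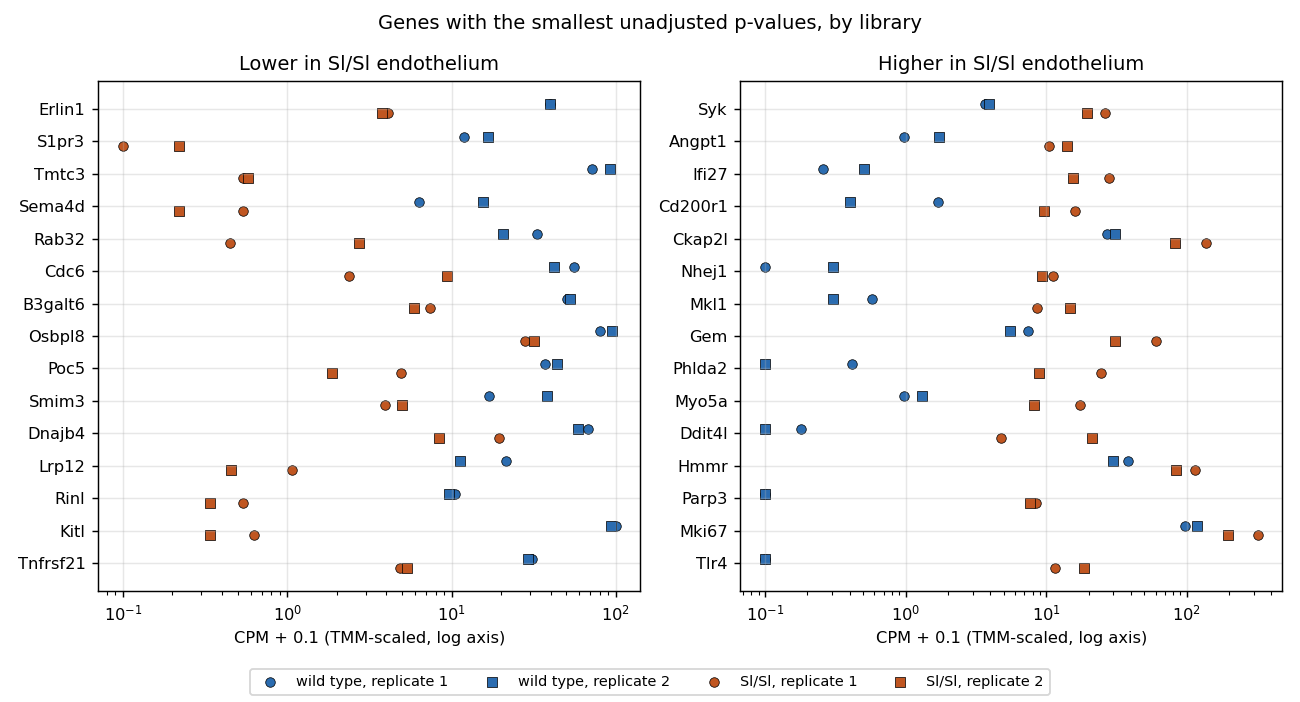
CPM + 0.1 per endothelium library on a log axis for the genes of smallest unadjusted p-value that do not overlap between genotypes, 15 in each direction. Erlin1 shows tight replicates on both sides (39.6 CPM in each wild type library), whereas Cdc6, Rab32 and Ddit4l spread by several fold between the Sl/Sl replicates.

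The ligands that the endothelium offers to neighbouring cells were followed as a list of 35, of which 29 were tested. Of these, 17 had a positive and 12 a negative log2 fold change, with a median of 0.12 against −0.0014 for all genes tested. Both Sl/Sl libraries lay above wild type for 6 members (20.7%) and below for 4 (13.8%). Per length of exon, the members with the highest level were Mdk, Igf2 and Jag1, at 672, 324 and 174 RPKM (mean of 2 libraries) in wild type and 593, 341 and 169 RPKM in Sl/Sl. Angpt1 and Kitl had the smallest p-values. Flt3l, the ligand of the progenitor receptor Flt3, had 1 count in each wild type library and 64 and 49 counts in Sl/Sl, a pooled ratio of 64.1 (95% exact interval 17.3 to 536). Flt3l and the other list members described below that do not have the smallest p-values or highest level of their list were chosen after their values were seen.

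Receptors and transducers of Kit signaling were measured in the endothelium itself. Kit, against which the cells had been sorted, had 1065 and 749 counts in wild type versus 763 and 538 in Sl/Sl, with a log2FC of −0.29 (SE 0.28). Of 43 genes of the Kit pathway, all tested, 21 were higher and 22 lower, and the median of −0.017 lay between −0.17 and 0.15 with each endothelial library left out. Sl/Sl lay below wild type without overlap for 11 of them (25.6%) and above for 4 (9.3%). Beside Kitl the lowest p-value was that of Hras, a Ras GTPase, with 765 and 485 counts in wild type versus 314 and 142 in Sl/Sl (log2FC −1.30, SE 0.56). A panel of Kit target and effector genes was taken from the qRT-PCR list of the study. Of its 18 members, 6 were higher and 12 lower, 3 lay above and 3 below. Cdkn1a, the cell cycle inhibitor p21, had 105 and 9 counts in wild type versus 268 and 395 in Sl/Sl (log2FC 2.92, SE 1.02, and 5.26 without wild type replicate 1), and Ccnd2, a D-type cyclin, had 3559 and 2825 counts versus 2466 and 1148 (log2FC −0.69, SE 0.28). The median of this panel was −0.11, and leaving out 1 wild type library moved it to −0.40 (without replicate 1) or 0.44 (without replicate 2). The 15 tested genes of Erk feedback, such as Dusp6 and Spry2, had a median of 0.23, or 0.16 with members at 3 counts or fewer in a genotype set to their bound. It became −0.51 without Sl/Sl replicate 2 and 0.68 without Sl/Sl replicate 1, so its sign depended on which library was left out.

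Endothelial identity genes stayed close between genotypes. Of 32 core endothelial genes, 23 were higher and 9 lower in Sl/Sl, 7 lay above wild type (21.9%) and 0 below, and the median of 0.12 ran from 0.089 to 0.14 with each endothelial library left out in turn. The VEGF receptor Flt1 had the smallest p-value of the list, with 1223 and 1060 counts in wild type versus 1876 and 1355 in Sl/Sl (log2FC 0.67, SE 0.46). Of 14 tested genes of VEGF and angiopoietin signaling, 11 were higher, 5 lay above (35.7%) and 0 below, with a median of 0.25 (0.13 to 0.41 with each library left out). Kdr, Flt1, Tek, Tie1 and Ptprb are members of this list and of the core endothelial list, so the counts of the lists are not independent. Of 25 arterial and Notch genes, 14 were higher and 11 lower, with 2 above and 3 below. Of 14 venous and lymphatic genes, 9 were higher and 5 lower. Nr2f2, the transcription factor of venous identity, had 3488 and 2925 counts in wild type endothelium versus 1579 and 1261 in Sl/Sl, a log2FC of −0.99 (SE 0.57) without overlap, while in clusters it had 258 and 500 counts versus 628 and 3102. The mesenchymal and smooth muscle genes summed to 921 and 1266 CPM in wild type clusters and 444 and 5617 CPM in Sl/Sl clusters. They were thus highest in the library with 3102 counts of Nr2f2, and their part in its cluster values was not tested. Of 11 genes of sphingosine phosphate signaling, 3 lay below (27.3%) and 0 above. One of these, Gna12, had 2 and 138 counts in wild type versus 1 in each Sl/Sl library. Its lower wild type library was under the floor of 3 counts, so that this member is not shown to lie below. S1pr1, the main receptor of endothelium, was at 163 RPKM in wild type and 168 RPKM in Sl/Sl (means of 2 libraries), unlike S1pr3. The TGF-beta and BMP list had 12 of 29 genes higher, 5 above and 5 below, and the Wnt list 10 of 22 higher, 4 above and 2 below.

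Cell cycle genes were more often higher than lower. Of 48 members, 34 were higher and 14 lower in Sl/Sl, 15 lay above both wild type libraries (31.2%) and 3 below (6.25%). The median of 0.24 stayed between 0.18 and 0.50 with each endothelial library left out, and 29 to 37 members were higher in these fits. At an unadjusted p-value under 0.05, 5 were higher and 2 lower, and DESeq2 called 2, Mki67 and Cdc6, in opposite directions. Beside Mki67, the mitotic motor Kif11 had 418 and 404 counts in wild type versus 944 and 606 in Sl/Sl (log2FC 1.06, SE 0.33). The spindle checkpoint gene Mad2l1 had 1159 and 2045 counts versus 3066 and 2329 (log2FC 0.87, SE 0.35), and Birc5, or survivin, had 4167 and 5843 counts versus 8254 and 5866 (log2FC 0.63, SE 0.27). Top2a, which untangles chromosomes, had 1359 and 2327 counts versus 3480 and 2287 (log2FC 0.75, SE 0.34). In these last 3 the wild type replicates lay farther apart on the log2 scale than the fitted change. The members above wild type also held inhibitors of the cycle, Cdkn1a as given above and Cdkn2c with 0 counts in both wild type libraries versus 66 and 1, the latter under the floor of 3 counts, so that this member is not shown to lie above. The summed level of the list was 5996 and 7740 CPM in wild type and 8223 and 7757 CPM in Sl/Sl, so that wild type replicate 1 stood lowest and the other 3 libraries were close. Cdk4, the member with the highest level, was at 792 RPKM in wild type and 716 RPKM in Sl/Sl. The members that lay below were Cdc6, Ccnd2 and Cdk4.

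**Figure D4:**
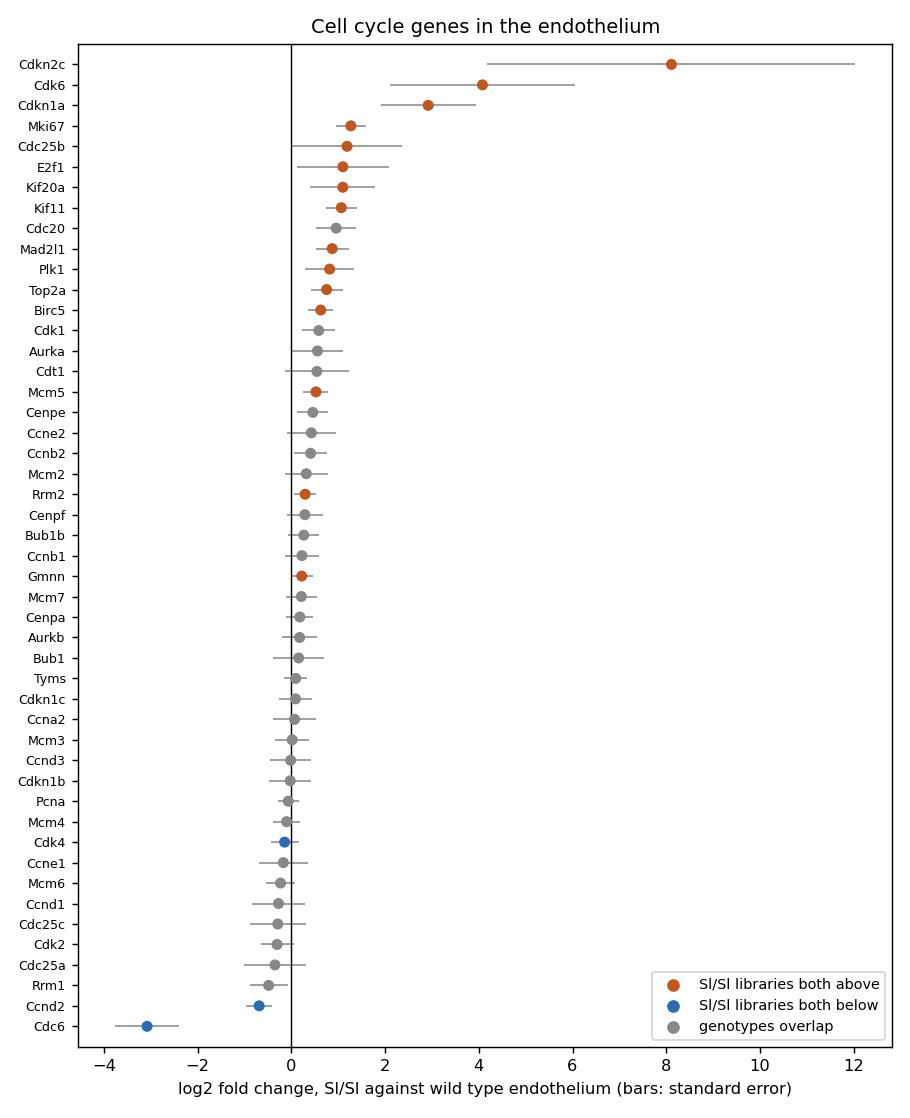
Log2 fold change of Sl/Sl against wild type endothelium (x axis, bars are standard errors of the edgeR fit) for the 48 cell cycle genes, coloured by whether the libraries of the genotypes overlap. Mki67, Kif11, Mad2l1 and Birc5 lie to the right of 0 with the Sl/Sl libraries above, Cdc6 lies at −3.08, and most members cluster within their error of 0.

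Interferon response genes were mixed. Of 43 tested, 26 were higher and 17 lower, 9 lay above (20.9%) and 7 below (16.3%), and the median of 0.33 was 0 without Sl/Sl replicate 1. Next to Ifi27, Ifit2 had 3 and 4 counts in wild type versus 129 and 66 in Sl/Sl, 31.6-fold higher (95% exact interval 15.1 to 79.7). Gbp2, a guanylate-binding protein, was at 0 in both wild type libraries versus 49 and 73 counts, at least 24.0-fold higher, and Rtp4 had 394 and 72 counts versus 1303 and 539 (log2FC 2.21, SE 0.80). Irf1, a transcription factor of the same response, was lower, with 363 and 89 counts in wild type versus 72 and 23 in Sl/Sl (log2FC −2.06, SE 0.82). Several further members had counts in Sl/Sl replicate 1 and none or few elsewhere, such as Ifit1 with 0, 0, 144 and 0 counts.

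Transcription factors of blood formation summed to 715 and 706 CPM in wild type and 855 and 650 CPM in Sl/Sl, and 0 of them were called by edgeR or DESeq2 (2 had an unadjusted p under 0.05). Of 22 tested, 9 lay below wild type (40.9%) and 2 above (9.1%), with a median of −0.20, or −0.076 with low members set to their bound as before, and of −0.56 to −0.070 with each endothelial library left out. Myb, which is needed for definitive hematopoiesis, had 61 and 48 counts in wild type versus 28 and 10 in Sl/Sl (log2FC −1.39, SE 0.44). Spi1, which encodes PU.1, had 46 and 87 counts versus 21 and 6 (log2FC −2.25, SE 0.78). Gata2 stood on the other side, with 428 and 236 counts against 612 and 421 (log2FC 0.84, SE 0.39). Markers of blood cells went both ways. Of 20 leukocyte markers 9 were higher and 11 lower, and of 11 tested erythroid markers 6 were higher and 5 lower. The 17 macrophage markers, 8 higher and 9 lower, summed to 36.3 and 42.9 CPM in wild type and 9.98 and 25.4 CPM in Sl/Sl, with 4, 7, 4 and 9 of them at 0, and with Lyz2 at 75 and 249 counts against 35 and 27. Of 11 megakaryocyte markers 7 lay below (63.6%) and 1, Itga2b, above, and their sums of 34.8 and 16.8 CPM in wild type and 12.1 and 16.9 CPM in Sl/Sl overlapped. Itga2b encodes CD41, against which the cells had been sorted, and had 53 and 44 counts in wild type versus 109 and 90 in Sl/Sl. Was, a leukocyte gene, had 6 and 42 counts versus 5 and 1. The part of such cells in these counts was not tested. Among 25 immunoreceptor signaling genes, 2 lay above and 6 below, Syk being among the former and the adaptor Lcp2, with 11 and 17 counts against 4 and 2, among the latter.

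Among 20 genes of the response to shear stress, 14 were higher, 3 lay above (15%) and 0 below, with a median of 0.22 that was −0.024 without Sl/Sl replicate 1. Ptgs1, which encodes cyclooxygenase 1, had 127 and 65 counts in wild type versus 409 and 212 in Sl/Sl (log2FC 1.87, SE 0.49), and DESeq2 on 8 libraries called it with an adjusted p-value of 0.0347. Of 28 genes of glycolysis and hypoxia, 4 lay above and 4 below. Hk2, a hexokinase, had 362 and 397 counts in wild type versus 95 and 144 in Sl/Sl (log2FC −1.44, SE 0.43), and Ldhb, a lactate dehydrogenase subunit, had 2711 and 947 counts versus 575 and 783 (log2FC −1.12, SE 0.46). Of 25 sterol genes, the list of Erlin1 and Erlin2, 13 were higher and 12 lower, with 2 above and 4 below. Of 22 immediate early and stress genes, 14 were higher, with 3 above and 1 below, and of 21 Bcl2 family and caspase genes 8 were higher and 12 lower.

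**Figure D5:**
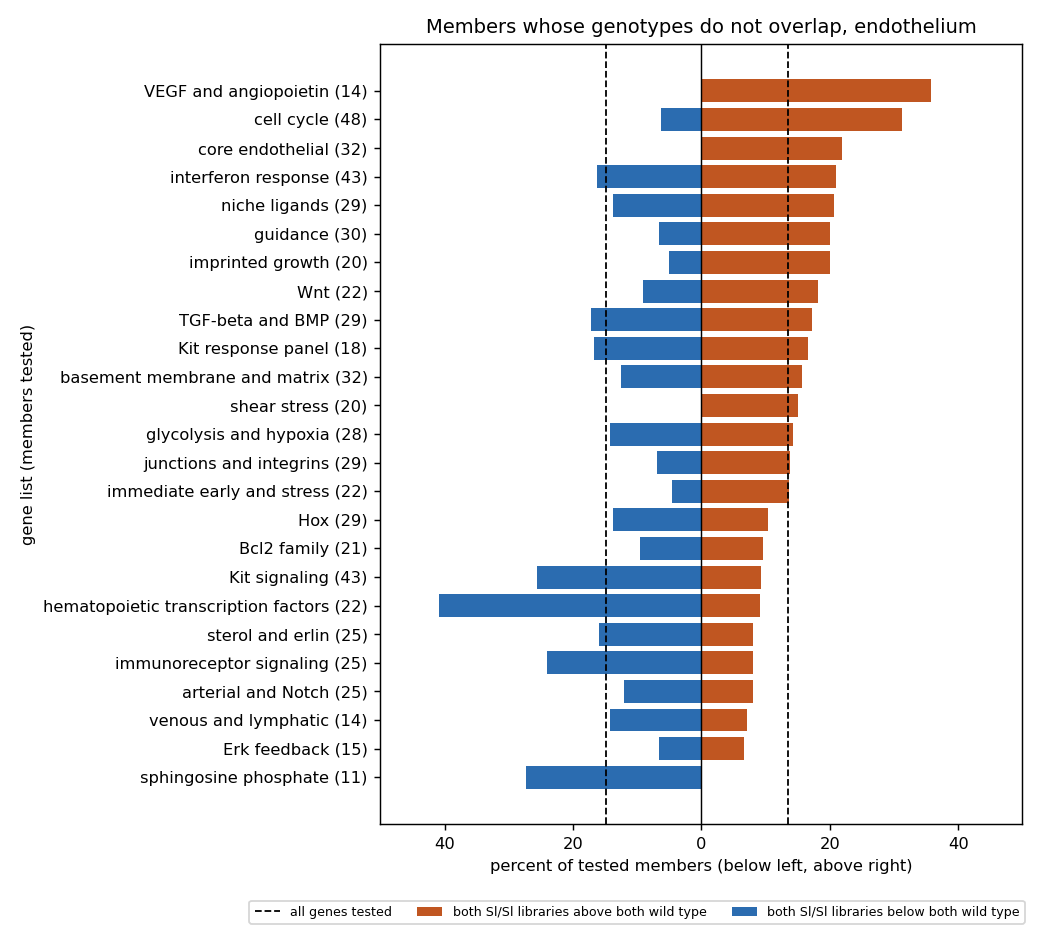
Percent of the tested members of gene lists (members tested in brackets) whose Sl/Sl libraries both lie above (right) or both below (left) both wild type endothelium libraries. Dashed lines mark 13.5% and 14.9%, the shares over all genes tested. The sort markers and the marker lists of other cell types are not drawn. Cell cycle reaches 31.2% and VEGF and angiopoietin 35.7% above, and hematopoietic transcription factors reach 40.9% below.

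The change in endothelium was set against that in clusters by an interaction term, which shares one estimate of spread over the 8 libraries. In edgeR, 0 genes (0%) passed after adjustment, and 736 (5.29%) had an unadjusted p under 0.05. Both cell types come from the same kind of embryo, and the Kit+ gate of the clusters and the Kit- gate of the endothelium set them apart. Tmtc3, Cep290 and 4930430F08Rik were near 0 in Sl/Sl libraries of both. The 48 cell cycle genes had a median of −0.058 in clusters, and the core endothelial list had a median of 0.89 in clusters, where these genes are low, beside 0.12 in endothelium. In clusters the core endothelial list summed to 3713 and 1869 CPM in wild type and 7047 and 2355 CPM in Sl/Sl, so the sums overlapped between the genotypes. Over all 13908 tested genes, 315 lay below wild type in both cell types and 316 above in both. Of 67 genes followed, many of them chosen for not overlapping in endothelium, 11 lay below in both and 2 above in both. The 11 were the 3 neighbours of Kitl, B3galt6, Osbpl8, Rinl, Tnfrsf21, Irf1, Hk2, Kit and Was, and the 2 were Prokr2 and Slc38a4. The cluster libraries had 1298 and 1761 counts versus 776 and 811 for Osbpl8 and 280 and 364 versus 50 and 131 for Rinl. S1pr3, near 0 in Sl/Sl endothelium, had 129 and 378 counts in wild type clusters versus 193 and 549 in Sl/Sl clusters, and its interaction did not pass after adjustment.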

How the data were processed

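RNA from 8 libraries of 100 sorted E11.5 cells was measured by RNA-Seq (SMARTSEQ2), and groups came from the sample labels. The authors deposited raw counts per gene, from reads aligned to mm9 with STAR and counted with featureCounts. Strand setting and annotation were not given in the sources used here, so overlapping genes can share reads. Here, edgeR 4.0.16 (limma 3.58.1, R 4.3.3) was used with TMM factors, filterByExpr, the quasi-likelihood test on all 8 libraries with 4 group means, and Benjamini-Hochberg adjustment over the 13908 tested genes. The threshold was 0.1. DESeq2 1.42.0 was an alternative. CPM and RPKM used TMM-scaled totals. The study calls the replicates biological, each from a pool of embryos, over 2 sorting experiments, and does not say whether replicates of a group were sorted on separate days. The common dispersion was 0.667, with 4 residual and 5.24 prior degrees of freedom. Exact permutation of 2 against 2 libraries cannot go below 0.333.

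Fold changes against 0 counts are bounds against 3 counts per library. Ratios with 1 to 15 pooled counts in one genotype have exact 95% intervals. Named genes were Kitl and genes within 2 Mb, the sort markers, the 15 smallest p in each direction without overlap and with at least 50 counts, genes at 3 counts or fewer in one genotype and at least 50 in the other, and for each list the 2 smallest p and the highest level. The genes, the gene lists and the rules were chosen with earlier results of these data known. Tests were checked on simulated data, with 200 of 13908 genes changed in 5 runs. Among the gene names, 27 had become dates, and none of these is named. Alternatives were RLE factors, other count filters, the 4 endothelial libraries alone, DESeq2, the replicate number as a block, a threshold of 0.05, and leaving out each library.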

Additional observations from a re-analysis of the deposited data

Results flagged for a closer look

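In 17 of 67 genes followed across the alternatives, the genotypes separated in opposite directions in the 2 cell types, with both Sl/Sl libraries above wild type in one and below it in the other. Of all tested genes that did not overlap in endothelium, 17.3% (684 of 3960) did the same, and 65 of the 67 did not overlap there, many having been chosen for it. Each value is the interaction, the log2 fold change in endothelium minus that in clusters, and none had an adjusted p-value under 0.1 in edgeR. Higher in Sl/Sl endothelium and lower in Sl/Sl clusters were Parp3 (10.46), Nhej1 (7.75), Mkl1 (6.17), Cdkn1a (3.96), Syk (3.85), Gem (3.82), Ptgs1 (2.39), Hmmr (1.92), Gata2 (1.43) and Top2a (1.07). Lower in endothelium and higher in clusters were Gucy1b3 (−7.65), Poc5 (−4.27), Nr2f2 (−3.12), Dnajb4 (−2.25), Lcp2 (−2.20), Ldhb (−1.60) and Erlin2 (−1.33). For Parp3 and Nhej1, at 0 to 2 counts in wild type endothelium, the size depends on the prior count of the fit. For Nr2f2, the Sl/Sl cluster library with the most counts also had the highest mesenchymal sum, as given above. Groups of 2 libraries were too small to test single libraries as outliers.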

How the results depend on the processing

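Of the 67 genes followed, all named in the text, 65 did not overlap between the genotypes in endothelium, many having been chosen for it. With both Sl/Sl libraries on one side of both wild type libraries, leaving out 1 library can hardly turn a direction. The 67 genes kept their direction in 765 of 768 alternative values, a count largely set by this choice. The exceptions were of Atp2b1, near 0 to begin with: −0.028 with a replicate block on 8 libraries, and −0.22 to 0.24 with 1 endothelial library left out. Leaving out 1 endothelial library moved the log2 fold change of 18 of them by over 1.5 times, such as Cdkn1a (2.92 to 5.26 without wild type replicate 1), Irf1 (−2.06 to −0.98 without the same library), Was (−2.98 to −0.69 without wild type replicate 2), and Birc5, Mad2l1 and Top2a (0.27, 0.40 and 0.30 without wild type replicate 1, and 1.12, 1.58 and 1.43 without replicate 2). Genes past the threshold, 0 in the reported edgeR fit, numbered 65 without a filter on low counts (26 higher, 39 lower), 2 on the 4 endothelial libraries, 176 with DESeq2 on 8 libraries (85 higher, 91 lower) and 55 with DESeq2 on 4. They stayed at 0 with RLE factors, with at least 10 counts per library and with any endothelial library left out. Genes at an unadjusted p under 0.05, 580 as reported, numbered 317 with at least 10 counts per library and 1088 with DESeq2 on 8 libraries, and 605 to 812 with 1 library left out. The interaction, with 0 calls, gave 179 without a filter, 193 with DESeq2, and 0 to 27 with 1 library left out (27 without wild type clusters replicate 1). Kitl, at a log2 fold change of −7.91, passed without a filter (−7.90), in edgeR (−7.89) and DESeq2 (−7.93) on 4 libraries and in DESeq2 on 8 (−7.96), with adjusted p-values of 6.18e-08, 0.0991, 1.46e-19 and 0.000104, and was −8.59 to −7.50 with 1 library left out. At least 10 counts in each library removed Kitl, so it has no value there.

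Samples of one replicate number are not shown to be pairs (correlation of their deviations −0.0025). The number as a block gave 0 calls on 8 libraries and 2 on the 4 endothelial libraries, Kitl (−7.94, adjusted p = 0.0117 in edgeR) and Tmtc3, with 384 genes at an unadjusted p under 0.05.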

Other observations

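Hox genes, which record position along the body axis, were read in 29 of 39 members, of which 11 were higher and 18 lower in Sl/Sl endothelium (median −0.30, and 0.26 without wild type replicate 1). Hoxd8, with the highest level, had 862 and 333 counts in wild type versus 985 and 648 in Sl/Sl, while Hoxc4 had 0, 89, 0 and 0 in the same order. Of 20 imprinted growth genes, 13 were higher, 4 lay above wild type and 1 below. Slc38a4, an imprinted amino acid transporter, had 962 and 533 counts in wild type versus 1296 and 1052 in Sl/Sl (log2FC 0.87, SE 0.35), and in clusters 611 and 551 versus 1016 and 1288.

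Vessel wall genes were split evenly. Of 32 basement membrane and matrix genes, 16 were higher and 16 lower, with Eln, which encodes elastin, at 717 and 886 counts in wild type versus 545 and 96 in Sl/Sl. Of 29 genes of junctions and integrins, 15 were higher and 14 lower. F11r, a tight junction protein, had 2629 and 2189 counts versus 3716 and 3238, and Itga2, a collagen receptor subunit, had 367 and 158 versus 36 and 25. Of 30 guidance genes, 22 were higher, 6 lay above and 2 below, and the median of 0.20 became −0.015 with wild type replicate 2 left out and 0.70 with replicate 1 left out.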
